A study of Mus musculus with 6 samples.

Results

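The 10 genes described here encode enzymes that attach glucuronic acid or sulfate to small molecules in the liver, 7 UDP-glucuronosyltransferases (UGTs) and 3 sulfotransferases (SULTs). They were chosen by symbol (Ugt1a1, Ugt2b1, Ugt2b5, Ugt2b34, Ugt2b35, Ugt2b36, Ugt2a3, Sult1a1, Sult1d1 and Sult1e1), and are 10 of the 35082 genes with transcripts in the files. A gene's value is the sum of the estimated counts over its transcripts, and 9 of the 10 had enough counts to be tested, among 12497 tested genes. Whole liver RNA was sequenced from 6 male mice aged 8 weeks at the start of a high-fat diet, which they ate for 20 weeks. The 3 LKO livers came from mice with floxed G3bp1 alleles and Cre recombinase driven by the albumin promoter (Alb-cre; G3BP1f/f), and the 3 WT livers from mice with the same floxed alleles and no Cre (G3BP1f/f). The albumin promoter is active in hepatocytes, so the deletion was aimed at these cells. Whether other cells of the liver keep G3bp1 was not measured, and no liver on another diet was analysed here.

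Libraries held between 20899135 and 21750007 estimated counts. G3bp1 itself measured 44.0, 30.0 and 31.5 CPM (counts scaled to an equal library size) in the libraries labelled LKO, against 44.1, 34.8 and 40.5 CPM in WT libraries. The log2 difference was -0.18 (standard error 0.22, edgeR adjusted p = 0.91), so the groups overlapped in the targeted gene, and the first is called LKO-labelled below. Which exons Cre deletes was not stated in the labels. Albumin was abundant in every library at 42813 to 74642 CPM in LKO-labelled livers and 59794 to 88282 CPM in WT livers, and the kidney genes Slc12a1 and Umod were at 0 in all 6. Of the intestinal genes listed with them, Vil1 was at or under 0.168 CPM and Fabp2 was at 183 to 255 CPM in LKO-labelled livers and 222 to 307 CPM in WT livers. LKO-labelled replicate 1 had effective lengths computed under other fragment settings than the remaining libraries, and LKO-labelled replicates 2 and 3 had counts on 36.3% and 37.8% of transcripts, against 30.2% to 31.2% in the other 4 libraries.

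UGTs sit in the membrane of the endoplasmic reticulum and transfer glucuronic acid from UDP-glucuronic acid to bilirubin, steroids, bile acids and drugs. SULTs of the cytosol transfer a sulfonate group from the donor PAPS to phenols, catecholamines and steroids. Both reactions make the substrate more soluble in water and ready for export into bile or blood, and hepatocytes are the main site of both.

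The positions of the genes fall into 3 places of the mouse genome (GRCm38, GENCODE M21). Ugt1a1 lies on chromosome 1 (88211959 to 88218997, plus strand), at the end of a locus whose genes each have their own first exon and share the others. The Ugt2 members lie together on chromosome 5, from Ugt2b34 (86889767 to 86906937) to Ugt2a3 (87324972 to 87337195), with Sult1d1 (87554645 to 87569027) and Sult1e1 (87575969 to 87591594) beyond them. Sult1a1 lies on chromosome 7 (126672865 to 126676432, minus strand).

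How far each gene can be told from its relatives differs, and the sequences of Ugt1a1 and Ugt2b5, the least distinct of the set, are shown for this. Of the 31-base words of the main Ugt1a1 transcript, 41.5% occur in no other gene's transcripts, since its exons 2 to 5 are common to the locus. The lines that follow give the last 30 bases of the first exon in capitals and the first 30 bases of the common exon 2 in lower case, from the GENCODE M21 transcripts.
Ugt1a1: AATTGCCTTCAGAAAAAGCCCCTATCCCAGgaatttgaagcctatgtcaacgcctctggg
Ugt1a8: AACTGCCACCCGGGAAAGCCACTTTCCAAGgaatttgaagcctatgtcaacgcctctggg
Capitals in this pair mark the exon and not a difference. Some of the capitals differ between the genes and others are the same, while the lower-case letters do not differ. The longest run of identical letters in both transcripts is 1313 bases, from base 912 of Ugt1a1, within its first exon of 913 bases.

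Ugt2b5 has the other close relative. Only 43.6% of its 31-base words occur in no other gene, and 44.9% occur in Ugt2b38. The coding sequences of both are 1590 bases long and identical at 97.0% of positions. The 60 coding bases with the most differences, positions 1467 to 1526 counted from 1 at the start codon, are given here with the 9 differing letters in capitals.
Ugt2b5: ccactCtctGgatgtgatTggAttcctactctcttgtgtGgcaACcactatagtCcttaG
Ugt2b38: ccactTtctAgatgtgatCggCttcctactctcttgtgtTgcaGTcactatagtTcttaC
In Ugt2b36 and Sult1a1 86.5% and 88.9% of words were their own, in Ugt2a3 92.0%, in Ugt2b1, Ugt2b34 and Ugt2b35 between 95.6% and 99.2%, and in Sult1d1 and Sult1e1 100%.

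None of the 9 tested genes differed between the groups by the test. The edgeR quasi-likelihood test with Benjamini-Hochberg adjustment over all tested genes called 0 of the 9, beside 0 of 12497 genes in all (0%). At an unadjusted p under 0.05 it passed 0 of the 9, against 568 of all genes (4.55%). DESeq2 called 0 of the 9 and 11 of all genes (0.088%), and limma voom called 0 of both. LKO-labelled and WT livers overlapped in all 9. Of all tested genes 9.34% had groups that did not overlap, 4.79% with LKO-labelled livers higher and 4.55% with them lower. For so few genes 0 is near that share, so the 9 do not stand apart from other genes in this. With TMM factors, which equalise the bulk of genes between libraries, 6 of the 7 UGTs had log2 differences below 0 and both tested SULTs lay above 0. The median over the 9 was -0.12, beside 0.01 for all tested genes. Without WT replicate 2, 4 of the 7 UGTs lay above 0 and the median over the 9 was 0.04. Without WT replicate 1, 0 of the 7 lay above 0 and the median over the 9 was -0.19. In that fit 1 of the 9 had an unadjusted edgeR p under 0.05, beside 1082 of 12806 tested genes.

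**Figure D1:**
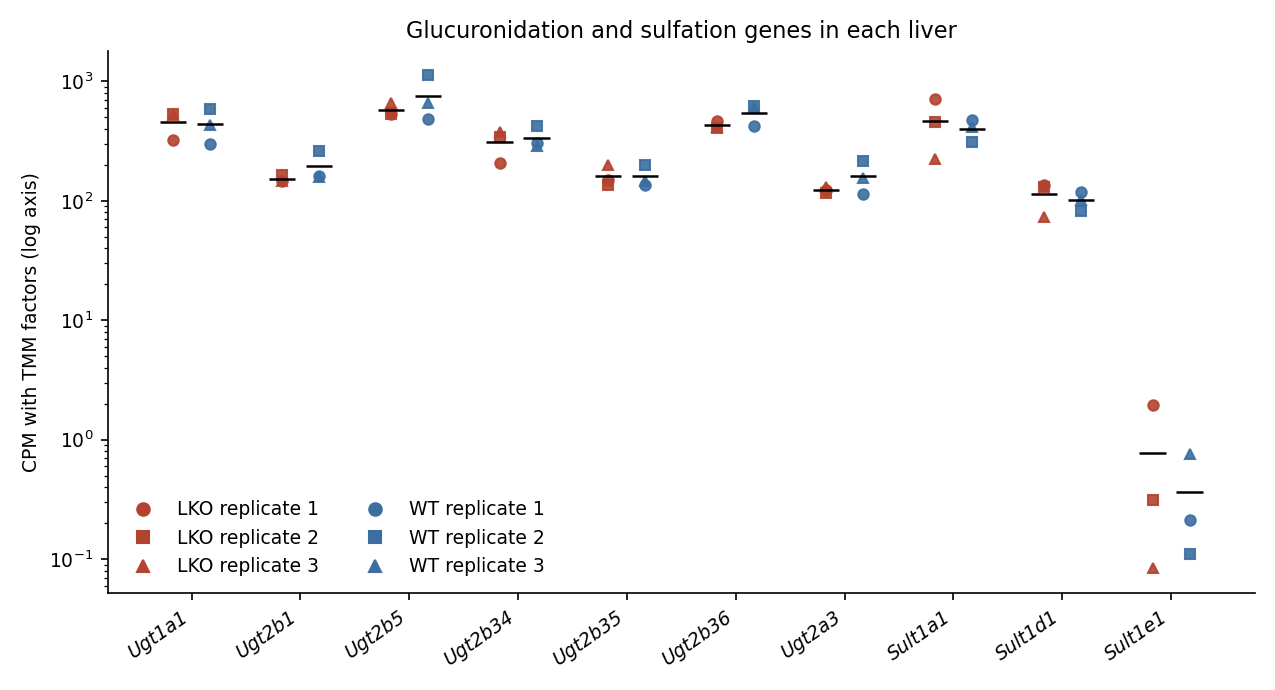
CPM with TMM factors (log axis) for the 10 genes in each of 6 livers, LKO-labelled left of WT, with a marker shape for each replicate number and a bar at the mean of 3. The groups overlap in every gene, and Sult1e1 stays at or under 1.94 CPM. WT replicate 2 is the highest library for all 7 UGTs on this scale (3 of 7 in TPM, where LKO-labelled replicate 3 is highest for 3 and WT replicate 3 for 1). WT replicate 1 is the lowest library for 4 of the 7 UGTs on this scale and for 6 of 7 in TPM.

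Ugt1a1 encodes the enzyme that conjugates bilirubin. It measured 321, 530 and 526 CPM in LKO-labelled replicates 1 to 3, against 299, 584 and 429 CPM in WT replicates 1 to 3. Replicate 1 was the low library of each group. WT replicate 2 was the high library in CPM, whereas in TPM, which is scaled to transcript length, LKO-labelled replicates 2 and 3, at 239 and 250 TPM, were above WT replicate 2 at 192 TPM. The means were 459 ± 120 CPM in LKO-labelled livers and 437 ± 143 CPM in WT livers (SD, n = 3 each), a log2 difference of 0.07 with a 95% interval from -0.67 to 0.81 (edgeR adjusted p = 0.97).

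The counts of the Ugt1a locus were divided differently in WT replicate 1. Ugt1a8, which shares all but the first exon with Ugt1a1, was given 1556 estimated counts in WT replicate 1 and 0 in each of the other 5 libraries. That is 18.4% of the Ugt1a counts of WT replicate 1 (Wilson 95% interval 17.6% to 19.2%), while the Wilson upper limits for 0 counts were 0.0211% to 0.0351% in the other libraries. These limits cover counting error only, and whether those reads came from Ugt1a8 was not tested. Ugt1a1 held 66.0% to 69.3% of the Ugt1a counts in LKO-labelled livers and 66.3% to 75.9% in WT livers. Adding Ugt1a8 to Ugt1a1, a sum chosen after seeing the data, brought WT replicate 1 to 382 CPM and the log2 difference to -0.02 (edgeR adjusted p = 0.99). Over all Ugt1a genes the sum was 472, 804 and 760 CPM in LKO-labelled livers, against 451, 769 and 583 CPM in WT livers (log2 difference 0.18, edgeR adjusted p = 0.94).

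**Figure D2:**
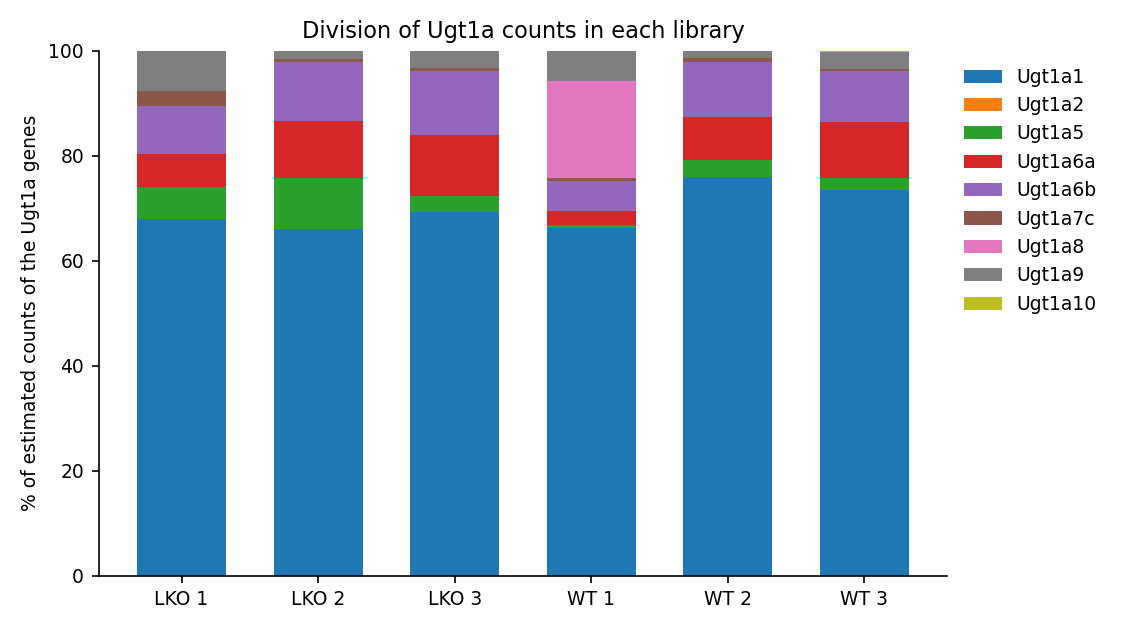
Share of the estimated counts of the Ugt1a genes given to each gene, in percent, with 1 stacked bar per liver, LKO-labelled left of WT. Ugt1a1 holds between 66.0% and 75.9% in every library, and the Ugt1a8 block of 18.4% appears in WT replicate 1 alone among these 6.

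Ugt2b5 was the most abundant UGT member and had the widest spread among WT livers of the UGT members. The UGT2B enzymes act on steroids, bile acids and many drugs. Its values were 536, 533 and 663 CPM in LKO-labelled replicates 1 to 3, against 485, 1120 and 655 CPM in WT replicates 1 to 3. WT replicate 2 stood above the other 5 libraries, and WT replicate 1 below them. The mean was 577 ± 74.0 CPM in LKO-labelled livers and 753 ± 329 CPM in WT livers (SD, n = 3 each), and the log2 difference of -0.38 had a 95% interval from -1.15 to 0.39 (edgeR adjusted p = 0.87). Without WT replicate 2 the log2 difference was 0.02. Summed with its relatives Ugt2b38 and Ugt2b37, the second of which holds 26.4% of the Ugt2b5 words, also a choice made after seeing the data, the log2 difference was -0.37 (edgeR adjusted p = 0.88).

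Ugt2b36 came next in level. It gave 470, 405 and 415 CPM in LKO-labelled livers, against 426, 619 and 595 CPM in WT livers. WT replicates 2 and 3 lay above every LKO-labelled liver, and WT replicate 1 lay among them in CPM. In TPM WT replicate 1, at 165 TPM, lay below every LKO-labelled liver, at 227, 235 and 253 TPM. The log2 difference of Ugt2b36 was -0.35 (standard error 0.24, 95% interval -0.90 to 0.21, edgeR adjusted p = 0.85). Between 96.6% and 99.6% of its counts lay on the coding transcript of 1888 bases.

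Ugt2a3 and Ugt2b1 had lower levels, again with WT replicate 2 highest. Ugt2a3, which conjugates bile acids in humans, had 123, 116 and 131 CPM in LKO-labelled livers, against 113, 217 and 154 CPM in WT livers. Its log2 difference of -0.39 (95% interval -0.99 to 0.21, edgeR adjusted p = 0.85) was the furthest below 0 of the 9, at rank 2584 of all tested genes by p. Leaving out WT replicate 2 brought it to -0.12, and leaving out WT replicate 1 to -0.59. Ugt2b1 measured 148, 165 and 147 CPM in LKO-labelled livers, against 163, 262 and 159 CPM in WT livers, so that a single WT library, replicate 2, stood apart in CPM. In TPM WT replicate 2 was highest at 73.4 TPM and WT replicate 1 lowest at 44.1 TPM, with LKO-labelled livers at 49.9, 63.2 and 59.1 TPM. The log2 difference of Ugt2b1 was -0.35 (95% interval -0.92 to 0.23, edgeR adjusted p = 0.85), and -0.07 without WT replicate 2. Leaving out WT replicate 1 or WT replicate 3 brought it to -0.46.

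Ugt2b34 and Ugt2b35 had the smallest differences among the Ugt2 genes with TMM factors, and the largest with library totals (0.16 and 0.28) and in the deposited TPM (0.20 and 0.35). Ugt2b34 gave 208, 344 and 374 CPM in LKO-labelled livers, against 302, 420 and 285 CPM in WT livers (log2 difference -0.12, 95% interval -0.79 to 0.55, edgeR adjusted p = 0.95). Ugt2b35 gave 148, 135 and 199 CPM in LKO-labelled livers, against 135, 201 and 147 CPM in WT livers, with means of 161 ± 33.5 and 161 ± 35.3 CPM (SD, n = 3 each). Its log2 difference was within 0.01 of 0, and its 95% interval ran from -0.57 to 0.57. A second Ugt2b34 transcript of 4312 bases had 8.57, 180 and 166 estimated counts in LKO-labelled replicates 1 to 3, against 5.37, 17.6 and 11.7 in WT replicates 1 to 3. LKO-labelled replicates 2 and 3, the high libraries for it, are also those with counts on the most transcripts, and the part of that in this value was not tested.

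Sult1a1, the main phenol sulfotransferase, had the widest spread among LKO-labelled livers of the tested members. It measured 712, 458 and 224 CPM in LKO-labelled replicates 1 to 3, against 477, 308 and 411 CPM in WT replicates 1 to 3. LKO-labelled replicate 1 stood above every WT liver and LKO-labelled replicate 3 below every WT liver in CPM, a span of 3.17-fold within the group. In TPM LKO-labelled replicate 3, at 206 TPM, was not below WT replicate 2, at 194 TPM, and WT replicate 2 was lowest for all 3 SULTs. The means were 465 ± 244 CPM in LKO-labelled livers and 399 ± 85.4 CPM in WT livers (SD, n = 3 each), with a log2 difference of 0.22 and a 95% interval from -0.70 to 1.15 (edgeR adjusted p = 0.94). Without LKO-labelled replicate 1 the log2 difference was -0.23, and without LKO-labelled replicate 3 it was 0.55. LKO-labelled replicate 3 also had the lowest sum of 6 hepatocyte markers, at 60183 CPM, against 100712 and 105068 CPM in the other LKO-labelled livers and 89782 to 117255 CPM in WT livers. Albumin made up 42813 CPM of the sum in LKO-labelled replicate 3, and LKO-labelled replicate 3 was not the lowest library for Serpina1c and Hnf4a among the 6. The part of this in the Sult1a1 value was not tested, and in whole liver fewer cells of a type and less RNA per cell cannot be told apart.

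Sult1d1, which sulfates catecholamines in mice, repeated the arrangement of Sult1a1. Its values were 135, 130 and 73.5 CPM in LKO-labelled livers, against 118, 82.0 and 102 CPM in WT livers. LKO-labelled replicate 3 and WT replicate 2 were the low libraries, as they were for Sult1a1. The log2 difference was 0.17 (95% interval -0.47 to 0.80, edgeR adjusted p = 0.94), and 0.01 without LKO-labelled replicate 1.

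Sult1e1, the estrogen sulfotransferase, was close to undetected and was not tested. It had 45, 7 and 2 estimated counts in LKO-labelled replicates 1 to 3, against 4, 2 and 16 in WT replicates 1 to 3. LKO-labelled replicate 1 held 45 of the 54 counts of its group, against 22 counts in all WT livers, and the other LKO-labelled livers held 9 between them. A value of 3 counts, taken as the floor, corresponds to 0.126 to 0.133 CPM in LKO-labelled livers and 0.143 to 0.164 CPM in WT livers, so 1 library of each group lay under it. Fitted without a filter on low counts, it had a log2 difference of 1.06 (standard error 0.95, edgeR adjusted p = 0.84).

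**Figure D3:**
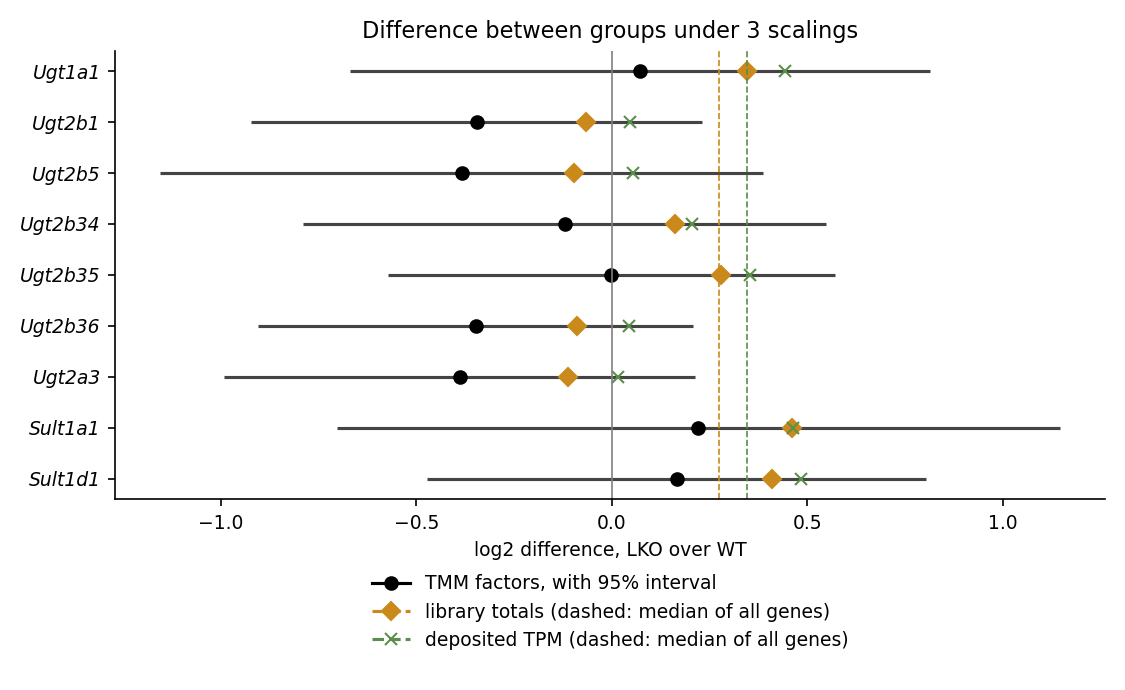
Log2 difference, LKO-labelled over WT, of the 9 tested genes with TMM factors (black, with 95% interval), with library totals (diamonds) and in the deposited TPM (crosses), where dashed lines mark the median of all tested genes on each scale. Every interval covers 0, and the UGTs from Ugt2b1 to Ugt2a3 except Ugt2b35 lie below the median of all genes on each scale.

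The side of 0 on which the UGTs lay depended on the scaling, whereas their place among all genes did so less. Under scaling by library totals the median log2 difference of all tested genes moved up by 0.26, and in the deposited TPM by 0.33. The number of UGTs above 0 was 1 of 7 with TMM factors, 3 with library totals and 7 in the deposited TPM. The number above the median of all genes was 1 with TMM factors and 2 on both other scales, with Ugt1a1 and Ugt2b35 as the 2 in the plot of the 3 scalings. Both tested SULTs lay above 0 and above that median on all 3 scales. The TMM factors themselves were 1.08, 1.07 and 1.14 in LKO-labelled libraries, against 0.90, 0.84 and 1.00 in WT libraries.

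Levels can be compared between genes in TPM. Over all 6 livers Sult1a1 averaged 320 ± 129 TPM and Ugt2b5 316 ± 93.0 TPM (SD, n = 6), and each was above the other in 3 libraries, so their order is not set. Ugt2b36 followed at 238 ± 41.1 TPM, below Ugt2b5 in all 6 libraries, and Ugt1a1 at 178 ± 61.1 TPM, below Ugt2b36 in 5 of 6. Ugt2b34 averaged 88.9 ± 25.3 TPM and was below Ugt1a1 in every library. Ugt2a3 and Ugt2b1, at 58.2 ± 12.9 and 56.9 ± 10.5 TPM, did not differ beyond their spread, nor did Ugt2b35, at 40.2 ± 10.8 TPM, and Sult1d1, each of which was above the other in 3 libraries. Sult1e1 was at 0.45 ± 0.57 TPM.

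The proportions among the 6 Ugt2 genes were given by their shares of the summed TPM. Their summed level was 686, 796 and 948 TPM in LKO-labelled livers, against 532, 1003 and 823 TPM in WT livers. Ugt2b5 made up 38.1%, 37.1% and 40.8% of it in LKO-labelled livers, against 35.6%, 45.2% and 37.6% in WT livers. Ugt2a3 made up 6.92% to 7.55% in LKO-labelled livers and 7.18% to 7.62% in WT livers. Ugt2b34 had the least even share, between 8.49% and 13.6% in LKO-labelled livers and between 9.41% and 12.8% in WT livers.

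The UGT and SULT sums did not follow each other from liver to liver. The 7 UGTs summed to 813, 1034 and 1198 TPM in LKO-labelled replicates 1 to 3, against 627, 1195 and 988 TPM in WT replicates 1 to 3. The SULTs, of which Sult1a1 made up 86.6% to 91.4%, summed to 587, 451 and 238 TPM in LKO-labelled livers, against 321, 219 and 338 TPM in WT livers. The libraries with the highest UGT sums, LKO-labelled replicate 3 and WT replicate 2, had the lowest SULT sums. The ratio of UGT to SULT, in which the scaling of the library cancels, was 1.39, 2.29 and 5.04 in LKO-labelled livers, against 1.96, 5.46 and 2.92 in WT livers. The groups overlapped in it, and the highest and the lowest liver of each group were further apart than the groups' medians.

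**Figure D4:**
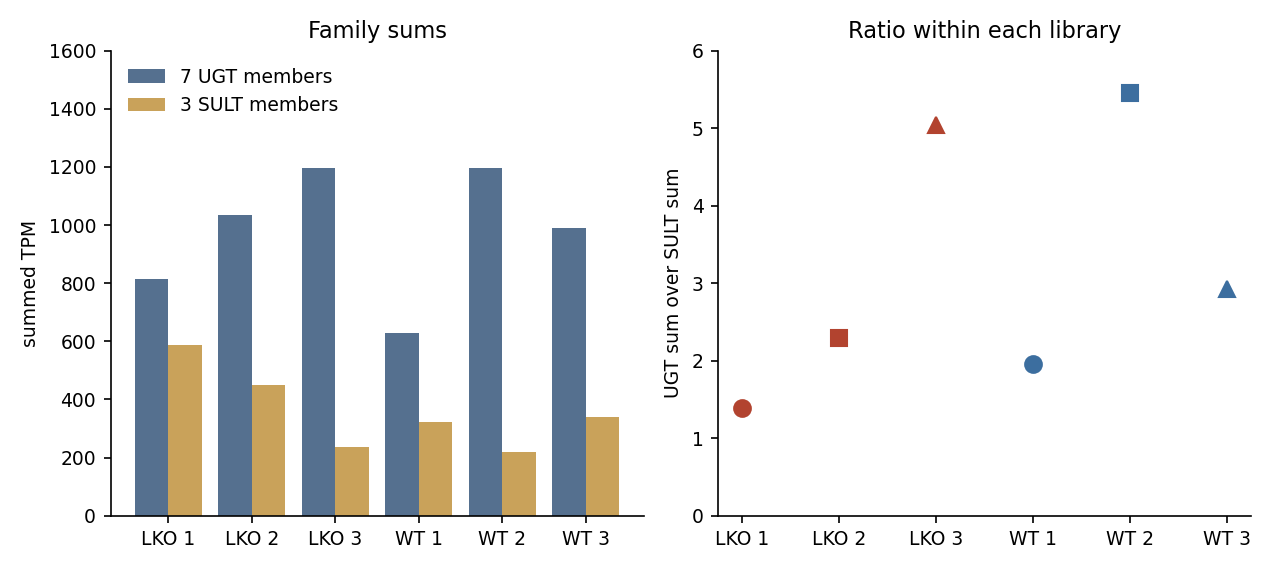
Summed TPM of the 7 UGTs and the 3 SULTs in each liver (left) and the ratio of the sums (right), LKO-labelled left of WT. The ratio runs from 1.39 to 5.04 in LKO-labelled livers and from 1.96 to 5.46 in WT livers, and the livers with the highest UGT sum in each group have the lowest SULT sum.

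The remaining genes of the families gave no call either. Of 15 other UGT genes 8 were tested, of which 6 lay above 0 with TMM factors and 0 passed the test, with a median log2 difference of 0.43. On the scales of library totals and deposited TPM all 8 lay above 0, and 6 and 5 of them above the median of all genes. Ugt1a5 measured 29.1, 78.7 and 23.5 CPM in LKO-labelled livers, against 2.02, 24.6 and 13.2 CPM in WT livers, so that WT replicate 2 lay above LKO-labelled replicate 3 (log2 difference 1.72, standard error 0.77, edgeR adjusted p = 0.84). Ugt1a7c measured 13.8, 4.87 and 3.40 CPM in LKO-labelled livers, against 2.40, 4.93 and 2.10 CPM in WT livers (log2 difference 1.23). LKO-labelled replicate 1 was its high library, and WT replicate 2 lay above LKO-labelled replicates 2 and 3. Ugt1a6b had a log2 difference of 0.46, and neither gene passed the test. These genes share exons 2 to 5 with Ugt1a1, so their counts are uncertain in the same way. Of 18 other SULT genes 5 were tested and 0 passed, with a median log2 difference of -0.24 with TMM factors. With library totals and in the deposited TPM 4 of the 5 lay above 0 (medians 0.065 and 0.15). All 5 lay below the median of all genes on the 3 scales. Sult2a8, a hydroxysteroid sulfotransferase, had 311, 658 and 736 CPM in LKO-labelled livers, against 622, 958 and 427 CPM in WT livers (log2 difference -0.24), and Sult5a1 had a log2 difference of -0.96 at 3.34 ± 1.36 CPM in LKO-labelled livers and 6.49 ± 3.12 CPM in WT livers (SD, n = 3 each; edgeR adjusted p = 0.84).

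Genes that supply the sugar and sulfate donors lay on both sides of 0. Of 10 genes 5 were above and 5 below with TMM factors, and 0 passed the test. In the deposited TPM all 10 lay above 0, and 5 above the median of all genes. Papss2, which makes PAPS in liver, measured 86.9, 94.5 and 79.1 CPM in LKO-labelled livers, against 120, 100 and 98.1 CPM in WT livers. Its groups did not overlap, as was also so for Impad1 among the 10, both with LKO-labelled livers lower. Of all tested genes 9.34% did not overlap in either direction, and 4.55% with LKO-labelled livers lower. The log2 difference of Papss2 was -0.29 (standard error 0.19, edgeR adjusted p = 0.85), and 0.07 in the deposited TPM. Ugp2, which makes UDP-glucose, and Slc35b2, a Golgi carrier of PAPS, had log2 differences of -0.28 each, and Slc35b3 one of 0.41. Ugdh, which turns UDP-glucose into UDP-glucuronic acid, had 161, 111 and 181 CPM in LKO-labelled livers, against 129, 127 and 128 CPM in WT livers.

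Genes listed for export and hydrolysis of the conjugates also gave no call. Abcc2, the canalicular pump for bilirubin glucuronides, measured 142, 354 and 405 CPM in LKO-labelled livers, against 198, 205 and 165 CPM in WT livers. LKO-labelled replicates 2 and 3 were above every WT liver and LKO-labelled replicate 1 below them (log2 difference 0.67, standard error 0.37, edgeR adjusted p = 0.84). Abcg2, an exporter of sulfated compounds, had 46.0, 44.7 and 89.5 CPM in LKO-labelled livers, against 82.4, 131 and 80.7 CPM in WT livers (log2 difference -0.71, edgeR adjusted p = 0.84). Abcc3 and Abcc4 had log2 differences of 0.26 and 0.39. Of 4 hydrolases listed, 3 were in the files and tested, and Sts was not among them. Gusb, Arsa and Arsb had log2 differences of 0.35, 0.44 and 0.09. Whether Arsa and Arsb act on the conjugates of these enzymes was not tested.

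**Figure D5:**
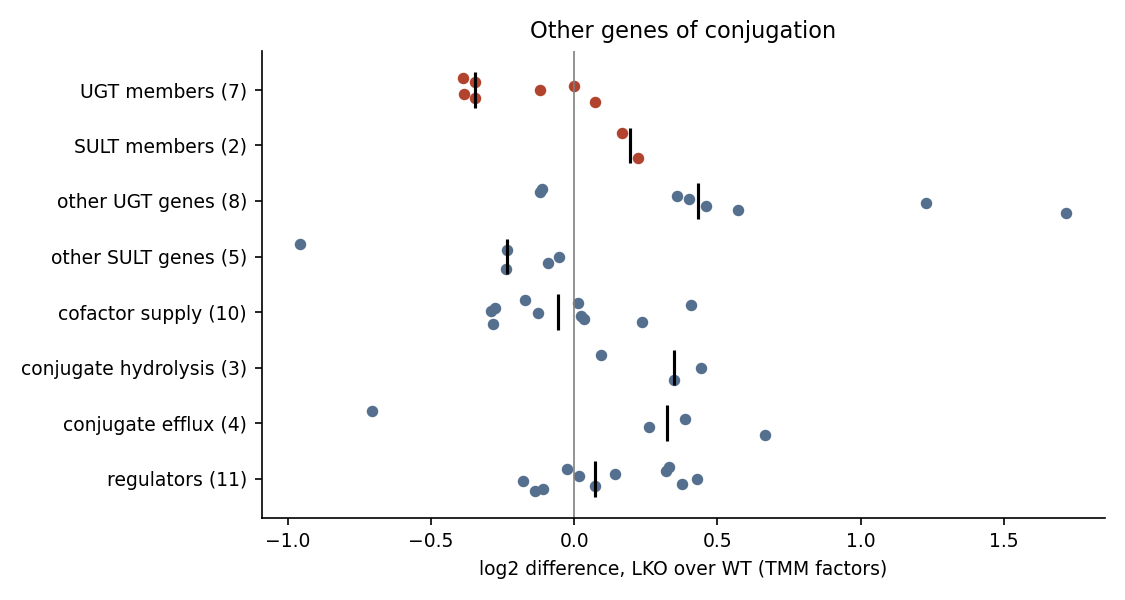
Log2 differences, LKO-labelled over WT with TMM factors, of the tested genes of each family and of the genes around them (number tested in brackets), with a bar at the median. The 9 tested members lie between -0.39 and 0.22, and the point furthest from 0 is Ugt1a5 at 1.72, which did not pass the test.

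Of 11 transcription factors known to act on these genes, 7 lay above 0 with TMM factors, 11 with library totals and 10 in the deposited TPM, with 7 above the median of all genes on each of these scales, and 0 passed the test. Nr1i2 and Nr1i3, the xenobiotic receptors PXR and CAR, had log2 differences of -0.14 and -0.11, and Nr1i3 ranged from 283 to 525 CPM in LKO-labelled livers and from 242 to 733 CPM in WT livers. Nr1h4, the bile acid receptor FXR, was the 1 gene of the 11 whose groups did not overlap, beside 9.34% of all tested genes, with 117, 127 and 125 CPM in LKO-labelled livers, against 155, 130 and 133 CPM in WT livers (log2 difference -0.18, edgeR adjusted p = 0.89), and 0.08 with library totals. Arnt had 0.38, and Ppara 0.43 with TMM factors but -0.07 in the deposited TPM, where it was the 1 gene of the 11 below 0. Nfe2l2, the factor of the antioxidant response, had 0.32.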

How the data were processed

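RNA of 6 livers was enriched with oligo(dT), per the labels' protocols, and sequenced as read pairs, per the series' design text. Each deposited file lists transcripts of 1 library with estimated counts, not scaled to depth, and with TPM, scaled by the authors to the same total in each library. The columns, per the file headers, are those that Salmon writes, without its version, options or transcriptome. The tools named in the submitters' processing notes, with no role, are RSEM 1.2.8, Bowtie2 2.2.5 and DESeq, and the build is GRCm38.

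Of 115221 transcript identifiers 113664 matched GENCODE M21 without their version, 13 also with it. Counts were summed per gene, rounded, filtered with filterByExpr, scaled with TMM factors and tested two-sided with edgeR 4.0.16 (quasi-likelihood, Benjamini-Hochberg, threshold 0.05) in R 4.3.3. Intervals use the residual and prior degrees of freedom of edgeR, 8.37 in all. DESeq2 1.42.0, limma 3.58.1 (on voom weights, and on log2 of TPM plus 0.1), other scalings, left-out libraries and a replicate block were alternatives. The test was checked on simulated counts.

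The members and lists were chosen with earlier results of these data known. Besides the members and G3bp1, up to 4 genes per list with the smallest p were to be named, and others named here (Ugdh, Impad1, Nr1i2 and Nr1i3 among them) were chosen after their values were seen. The study calls the animals biological replicates. Counting intervals assume independent reads. A regulator of the list is not reported here.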

Additional observations from a re-analysis of the deposited data

How the results depend on the processing

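No alternative tried called any of the 9 tested genes, whose lowest adjusted p was 0.85 in the main fit and 0.43 over all settings. Over all tested genes DESeq2 called 11 and the fit without LKO-labelled replicate 1 called 3 (range 0 to 3 over the 6 fits that leave out a library), against 0 in the main fit, limma voom and the other settings. With library totals the median log2 difference of the 9 was 0.16, in place of -0.12, and Ugt2b34 and Ugt2b35 turned to 0.16 and 0.28. In the deposited TPM the median was 0.20 and the mean of the UGTs 0.17, in place of -0.22, with Ugt2b1 at 0.047, Ugt2b5 at 0.055, Ugt2b34 at 0.20, Ugt2b35 at 0.35, Ugt2b36 at 0.045 and Ugt2a3 at 0.017. Both scalings move the median of all genes up. After removal of trends with length and GC content in each library, Sult1d1 turned to -0.042, and with an offset for effective length Ugt2b35, at -0.0011 in the main fit, turned to 0.00022. Summed with Ugt1a8, Ugt1a1 turned to -0.017. With 1 library left out, the median of the 9 ran from -0.28 to 0.038, the mean of the UGTs from -0.38 to 0.027 and that of the SULTs from -0.11 to 0.48. Log2 differences ran from -0.14 to 0.34 for Ugt1a1, from -0.62 to 0.020 for Ugt2b5, from -0.28 to 0.094 for Ugt2b34, from -0.18 to 0.19 for Ugt2b35 and from -0.23 to 0.55 for Sult1a1, and Ugt2a3, Ugt2b1, Ugt2b36 and Sult1d1 kept their sign in these 6 fits. The causes of these turns were not tested. With replicate number as a block (replicate block), 0 genes were called, the median of the 9 was -0.15 and Ugt2b35 was at 0.0023, while the other members kept their sign. Deviations of same-numbered libraries from their group means correlated at 0.20, 0.27 and -0.14, so the numbers were not taken to pair the animals, and LKO-labelled replicate 3 correlated best with WT replicate 2 (0.34). With 3 animals a group, the 95% intervals of the 9 genes, of which the narrowest ran from -0.90 to 0.21, limit what can be seen.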
